A study of Homo sapiens with 8 samples.

Results

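The 8 genes described here are markers of neuroendocrine and synaptic identity: SYP, SNAP25, SYT1, CHGA, CHGB, INSM1, NCAM1 and UCHL1. They are 8 of the 61228 gene names counted. SYP was chosen by its measured counts in these same libraries, which were higher with ACBI1 in H1975 cells, and the other 7 were set beside it as the markers commonly read with it. The values of SYP in H1975 are therefore given as a description, without a test. The other values did not enter the rule that picked SYP, though the 8 genes were put together with earlier results of these data known. The response of SYP in HCC44, and the 4 other genes that passed a filter on low counts, were tested.

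The RNA came from H1975 and HCC44, established human non-small-cell lung cancer lines, both labelled wild type. Each line received either DMSO, the solvent control, or ACBI1 for 96 hours, with 2 libraries in each of the 4 groups. ACBI1 is a chimeric compound that recruits the VHL ubiquitin ligase to SMARCA2, SMARCA4 and PBRM1, bromodomain subunits of SWI/SNF chromatin remodellers, so that these proteins are degraded. The labels give its dose as 1 mM. Nothing in them says that the 2 libraries of a group came from separate cultures, so p-values measure only the spread between these libraries, which may be technical. Each line stands for itself and not for a class of tumours.

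Neuroendocrine cells and neurons store signals in vesicles and release them when calcium enters. Synaptophysin (SYP) is a membrane protein of small synaptic vesicles, SNAP25 is a plasma membrane SNARE protein that drives vesicle fusion, and synaptotagmin 1 (SYT1) is the calcium sensor of release. Chromogranins A and B (CHGA, CHGB) fill the dense-core granules that hold peptide hormones. INSM1 is a zinc-finger transcription factor of neuroendocrine cells, NCAM1 (CD56) is a neural cell adhesion molecule, and UCHL1 (PGP9.5) is an abundant ubiquitin hydrolase of neurons. Pathologists stain for SYP, CHGA, NCAM1 and INSM1 to recognise small-cell lung cancer and other neuroendocrine lung tumours.

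The promoters of SYP and UCHL1 are shown because SYP is the gene the others were set beside and UCHL1 had the largest fitted difference between the lines among them. Each run covers 300 bases around the annotated start, read 5′ to 3′ on the gene's strand, from RefSeq on GRCh38.p14, with every CG dinucleotide in capitals.
SYP, chrX:49200144-49200443, minus strand: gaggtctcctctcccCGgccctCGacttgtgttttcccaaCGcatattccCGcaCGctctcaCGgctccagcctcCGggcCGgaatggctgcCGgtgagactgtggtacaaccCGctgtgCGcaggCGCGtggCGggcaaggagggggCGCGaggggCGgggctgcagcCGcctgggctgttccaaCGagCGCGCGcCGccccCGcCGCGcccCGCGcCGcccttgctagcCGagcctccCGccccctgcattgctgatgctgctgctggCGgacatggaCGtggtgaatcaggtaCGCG
UCHL1, chr4:41256678-41256977, plus strand: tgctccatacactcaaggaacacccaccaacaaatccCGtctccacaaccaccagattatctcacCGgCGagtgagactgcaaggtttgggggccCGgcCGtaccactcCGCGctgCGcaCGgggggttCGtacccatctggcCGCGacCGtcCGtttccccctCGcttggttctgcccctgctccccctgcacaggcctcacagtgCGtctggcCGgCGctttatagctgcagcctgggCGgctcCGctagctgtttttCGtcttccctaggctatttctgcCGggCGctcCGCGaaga
Both are rich in CG. The SYP window held 35 CG dinucleotides at 71.3% G+C, and the UCHL1 window held 25 at 63%, against medians of 14 and 58.7% over 35114 promoter windows of that length. RefSeq entries were matched for 4 of the 8 genes, the others being SYT1 (15 CG, 62% G+C) and CHGA (24 CG, 69.3%). SNAP25, CHGB, INSM1 and NCAM1 had no matched entry. On both strands, the E-box CAGCTG, bound by basic helix-loop-helix factors, occurred in 17.9% of all windows. TTCAGCAC and GGACAG, the left and right parts of the element bound by the neuronal repressor REST, occurred in 0.963% and 20.6%. Among the 4 matched windows a single match was found, GGACAG in reverse orientation at position -227 from the start of SYT1.

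Reads assigned to genes ranged from 62467286 to 70455517 per library. Levels are given as CPM, the usual depth-scaled counts, after TMM scaling, and levels of different genes are compared only as CPM per kilobase of exon. In each of the 8 libraries the other replicate was the closest library (r of at least 0.9922 between replicates, at most 0.9756 between treatments of a line and at most 0.8435 between lines). The TMM factors moved with treatment in both lines. In H1975 they were 0.9898 and 0.9887 with DMSO and 1.146 and 1.133 with ACBI1. In HCC44 they were 0.9197 and 0.9058 with DMSO and 0.9785 and 0.9661 with ACBI1. Scaling by library totals instead gave a median log2 change over all genes of 0.18 in H1975 (-0.014 with TMM) and 0.093 in HCC44 (0.006 with TMM), and moved the share of calls that were higher from 46.6% to 72.3% in H1975, from 50.0% to 60.5% in HCC44 and from 54.9% to 40.5% for the difference between the responses. With bulk RNA, fewer cells of a type and less RNA per cell cannot be told apart in any value below. Of the 8 genes, 5 passed the filter on low counts, namely SYP, SNAP25, SYT1, CHGB and UCHL1. CHGA, INSM1 and NCAM1 did not and have counts only. CHGB passed only through its HCC44 ACBI1 libraries.

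**Figure D1:**
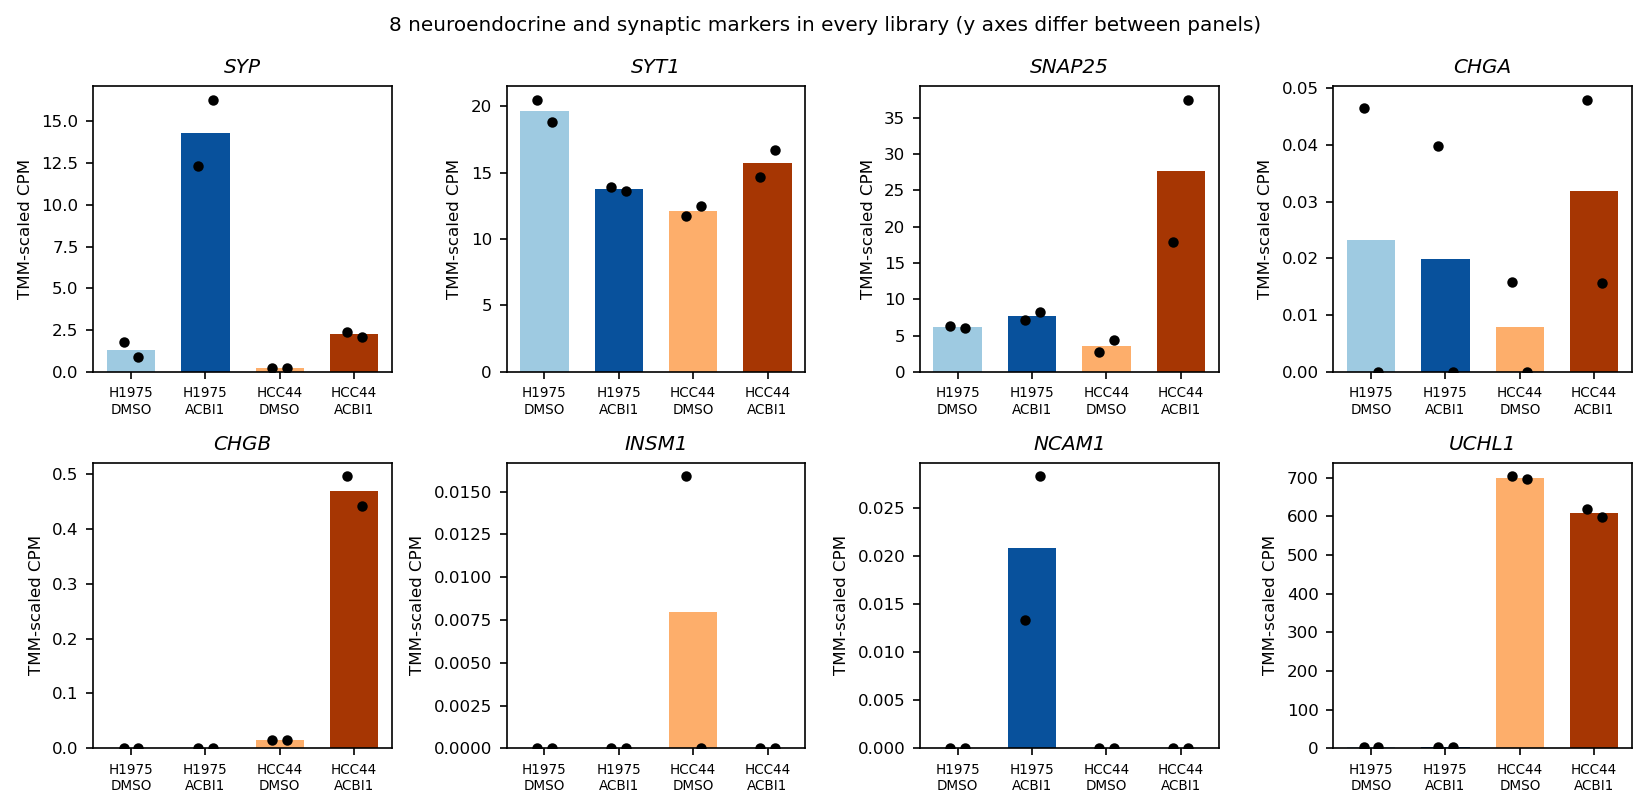
Level of each of the 8 genes in every library, in TMM-scaled CPM on a linear axis that differs between panels. Bars are group means of 2 libraries and dots are the libraries, with SYP highest in H1975 ACBI1 (12.3 and 16.3 CPM), SNAP25 highest in HCC44 ACBI1 (17.9 and 37.5 CPM), and UCHL1 at 599 to 704 CPM in HCC44 against 2.23 to 3.76 CPM in H1975.

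SYP, the vesicle membrane protein, was higher with ACBI1 in both lines, 10.8-fold in H1975 and 10.2-fold in HCC44 by summed counts. In H1975 its counts were 115 and 59 with DMSO and 928 and 1151 with ACBI1, or 1.79 and 0.873 CPM against 12.3 and 16.3 CPM. The groups did not overlap, although the DMSO libraries differed from each other. The exact 95% interval of the 10.8-fold ratio, for counting error only, was 9.26 to 12.7. As a description, the log2 change was 3.43 (SE 0.3), rank 107 from the top among 21307 genes, and it was 4.03 without DMSO replicate 1 and 3.05 without DMSO replicate 2.

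In HCC44 SYP started lower, at 14 counts in each DMSO library (0.223 and 0.219 CPM). With ACBI1 it reached 150 and 133 counts (2.4 and 2.09 CPM). Both treated libraries stood above both controls. The summed ratio was 10.2 (6.88 to 15.6), and SYP rose by a log2 change of 3.33 (SE 0.38, n = 2 per group, edgeR quasi-likelihood adjusted p = 9.46e-05). It was called in 15 of 15 alternative analyses, with changes of 3.23 to 3.43. In HCC44, 17.5% of the 21307 genes tested were called higher.

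The levels of SYP reached with ACBI1 differed between lines in the same way as the starting levels. Per kilobase of exon, SYP stood at 0.255 CPM in H1975 DMSO, 2.74 in H1975 ACBI1, 0.0424 in HCC44 DMSO and 0.431 in HCC44 ACBI1. From high to low the groups were H1975 ACBI1, HCC44 ACBI1, H1975 DMSO and HCC44 DMSO, with no overlap between the libraries of neighbouring groups. The ratio of HCC44 DMSO to H1975 DMSO was 0.168 (0.108 to 0.251). As a description, the responses of the lines differed by a log2 value of -0.1 (HCC44 minus H1975), which ranged from -0.69 to 0.28 over alternatives. SYP lies on the minus strand of chromosome X (GRCh38, 49187804 to 49200259, 6 exon blocks, 5215 bases of exon). Its antisense gene SYP-AS1 shares 68 exonic bases with it and had 2 counts in H1975 ACBI1 and 0 in the other groups.

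SNAP25, the SNARE partner in vesicle fusion, responded in HCC44 but did not pass the test in H1975. In HCC44 it had 173 and 282 counts with DMSO and 1119 and 2383 with ACBI1, or 2.75 and 4.42 CPM against 17.9 and 37.5 CPM. The ACBI1 replicates differed from each other by more than the control libraries did, yet both stood above both controls. SNAP25 rose 7.72-fold (log2 2.95, SE 0.36, adjusted p = 0.000399, edgeR). It was called in 15 of 15 alternatives, at 2.32 without ACBI1 replicate 2 and 3.39 without ACBI1 replicate 1.

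In H1975 SNAP25 had 405 and 407 counts with DMSO (6.29 and 6.02 CPM) and 534 and 579 with ACBI1 (7.1 and 8.19 CPM). The log2 change was 0.31 (95% interval -0.46 to 1.08, edgeR adjusted p = 0.525), and no alternative called it. The response in HCC44 exceeded that in H1975 by 2.64 on the log2 scale (SE 0.48, edgeR adjusted p = 0.00779, 14 of 14 alternatives), against 10.2% of all genes called higher in that comparison of responses. SNAP25 per kilobase of exon went from 1.07 to 8.25 CPM in HCC44 and stood at 1.83 and 2.28 in H1975. The gene is on the plus strand of chromosome 20 (10218830 to 10307418). SNAP25-AS1, on the opposite strand with 0 shared exonic bases, had summed counts of 29, 21, 25 and 57 in H1975 DMSO, H1975 ACBI1, HCC44 DMSO and HCC44 ACBI1.

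SYT1, the calcium sensor, moved little and in opposite directions in the 2 lines. In H1975 it had 20.5 and 18.8 CPM with DMSO and 13.9 and 13.6 CPM with ACBI1, with no overlap. It fell 1.43-fold there (log2 -0.51, SE 0.13, edgeR adjusted p = 0.0119), in a comparison where 16.7% of all genes were called lower. That call was lost in 4 of 15 alternatives: with library totals (adjusted p = 0.0814) and without DMSO replicate 1 (0.0851), ACBI1 replicate 1 (0.0727) or ACBI1 replicate 2 (0.0923).

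In HCC44 SYT1 had 11.7 and 12.5 CPM with DMSO and 14.7 and 16.7 CPM with ACBI1. It rose there by a log2 change of 0.37 (SE 0.13, edgeR adjusted p = 0.0448), a call that held in 6 of 15 alternatives (adjusted p 0.0155 to 0.202). The difference between the responses was 0.88 (SE 0.18, edgeR adjusted p = 0.00788) and was called in 14 of 14 alternatives. With DMSO, SYT1 was lower in HCC44 than in H1975 by 0.69 on the log2 scale (log2 -0.69, SE 0.13, edgeR adjusted p = 0.000598), where 36.4% of all genes were called lower. SYT1 is on chromosome 12 (78863993 to 79452008, plus strand).

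**Figure D2:**
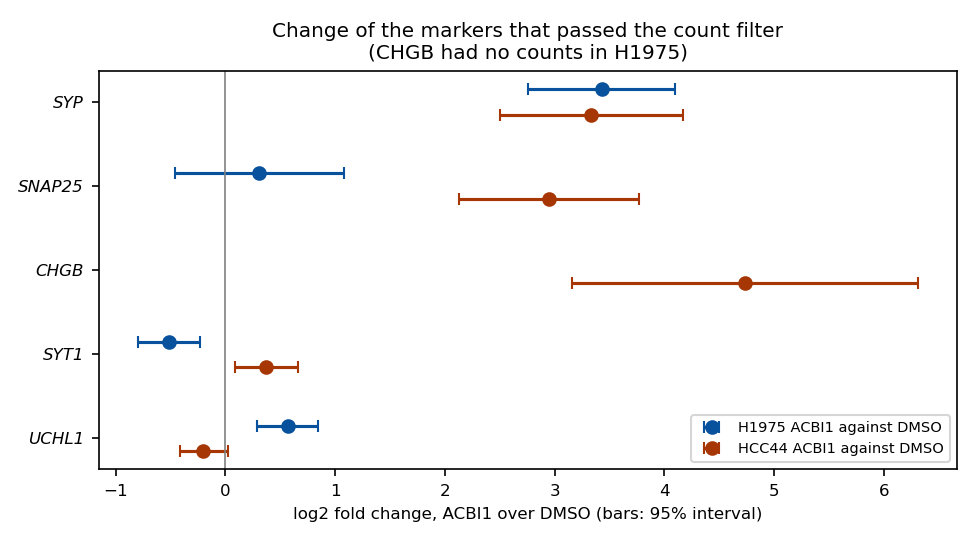
Log2 change with ACBI1 against DMSO for the 5 of the 8 genes that could be fitted, by line, with 95% intervals from the edgeR fit (CHGB has no fold in H1975, where it had 0 counts). SYP sits at 3.43 and 3.33 in H1975 and HCC44, SNAP25 at 0.31 and 2.95, SYT1 at -0.51 and 0.37, and UCHL1 at 0.57 and -0.2.

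The granule protein CHGB was detected in HCC44 and not in H1975. Its counts in HCC44 were 1 and 1 with DMSO (0.0159 and 0.0157 CPM) and 31 and 28 with ACBI1 (0.496 and 0.441 CPM). The 2 treated libraries were close together and far above the controls. Summed, these are 2 against 59 counts, a ratio of 29.7 (95% exact interval 7.85 to 251). The fitted log2 change was 4.73 (SE 0.69, edgeR adjusted p = 0.000882, 14 of 14 alternatives that kept the gene). Since CHGB passed the filter only through those treated libraries, its call had to follow from its being tested and adds nothing to a count of the 8 genes. In H1975 it had 0 counts in 4 of 4 libraries, which allows up to 0.0227 CPM with DMSO and 0.0206 CPM with ACBI1.

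CHGA, the marker stained in the clinic beside SYP, stayed at the limit of detection. Its counts were 3 and 0 in H1975 DMSO, 3 and 0 in H1975 ACBI1, 1 and 0 in HCC44 DMSO, and 3 and 1 in HCC44 ACBI1. The ratio of summed counts was 0.905 (0.121 to 6.75) in H1975 and 4.02 (0.398 to 198) in HCC44, so no difference was detectable at this depth. The highest library reached 0.048 CPM. CHGA is on chromosome 14 (92923080 to 92935293) and CHGB on chromosome 20 (5911430 to 5925361), both on the plus strand.

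The transcription factor INSM1 and the adhesion molecule NCAM1 were all but absent. INSM1, a gene with 1 exon block on chromosome 20 (20368121 to 20370949), had 1 count in HCC44 DMSO replicate 1 and 0 in the other 7 libraries. NCAM1, on chromosome 11 (112961247 to 113278436), had 1 and 2 counts in the H1975 ACBI1 libraries and 0 in the other 6. A group with 0 counts allows up to 0.0206 to 0.0238 CPM, depending on the group. NCAM1-AS1, which shares 552 exonic bases with NCAM1 on the opposite strand, also had 2 counts in H1975 ACBI1, and without strand information such reads cannot be told apart.

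NEUROD1, a transcription factor of neuronal and neuroendocrine cells, had 0 counts in all 8 libraries. REST, the repressor of neuronal genes outside the nervous system, was present in every group. REST averaged 70.5 ± 7.2 CPM with DMSO and 55.9 ± 3.6 CPM with ACBI1 in H1975 (SD, n = 2), a log2 change of -0.34 (SE 0.11, edgeR adjusted p = 0.0455) that 7 of 15 alternatives called. It was lost with RLE factors, library totals and DESeq2, and without H1975 DMSO replicate 2, either H1975 ACBI1 library or either HCC44 DMSO library (log2 -0.44 to -0.13 over alternatives). In HCC44 REST was at 83.9 ± 7.5 and 90 ± 9.7 CPM (log2 0.1, edgeR adjusted p = 0.538).

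UCHL1, the ubiquitin hydrolase, separated the lines rather than the treatments. HCC44 had 704 and 696 CPM with DMSO and 620 and 599 CPM with ACBI1, whereas H1975 had 2.31 and 2.23 CPM with DMSO and 2.98 and 3.76 CPM with ACBI1. No library of a line came near those of the other. With DMSO the HCC44 level was 307-fold that of H1975 (log2 8.26, SE 0.14, edgeR adjusted p = 3.37e-11), in a comparison where 31.6% of all genes were called higher. Per kilobase of exon UCHL1 stood at 307 CPM in HCC44 DMSO, while SYP, SNAP25 and SYT1 stood there at 0.0424, 1.07 and 1.87.

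With ACBI1, UCHL1 rose 1.48-fold in H1975 (log2 0.57, SE 0.12, edgeR adjusted p = 0.00616), where 14.6% of all genes were called higher. The call was lost when each line was fitted alone (adjusted p = 0.0724) and without ACBI1 replicate 2 (log2 0.41, adjusted p = 0.0812). In HCC44 the change was -0.2 (95% interval -0.41 to 0.02, edgeR adjusted p = 0.141), and no alternative called it, although the libraries of the groups did not overlap. The responses differed by -0.76 (HCC44 minus H1975, SE 0.16, edgeR adjusted p = 0.00802, 14 of 14 alternatives), against 8.4% of all genes called lower. UCHL1 is on chromosome 4 (41256413 to 41268455, plus strand). UCHL1-AS1, which shares 135 exonic bases with it on the opposite strand, was not analysed here.

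Among the genes other than CHGB, which was tested only because it was high in treated HCC44 libraries, SYP, SNAP25 and SYT1 (the last in 6 of 15 alternatives) were called higher in HCC44 and none lower, where 17.5% of all genes were called higher and 17.4% lower. UCHL1 was not called there. In H1975, beside SYP, UCHL1 was called higher, SYT1 lower and SNAP25 neither, where 14.6% of all genes were called higher and 16.7% lower.

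Close relatives with broad, non-neuronal expression were measured beside 3 of the genes. SYPL1, a synaptophysin-like protein of many cell types, stood at 35.2 CPM per kilobase in H1975 DMSO and 16.7 in HCC44 DMSO, far above SYP. SYPL1 fell in H1975 from 98.7 ± 1.3 to 74.9 ± 6.4 CPM (log2 -0.4, edgeR adjusted p = 0.0148), a call lost with library totals, without DMSO replicate 2 and without ACBI1 replicate 1 (log2 -0.47 to -0.19). In HCC44 it went from 46.9 to 42.8 CPM (adjusted p = 0.372). The muscle-associated SYPL2 rose in H1975 from 10 to 79 summed counts (log2 2.81, SE 0.46, edgeR adjusted p = 0.00121), while its 4 and 14 counts in HCC44 did not pass (adjusted p = 0.0661). SYPL2 passed the filter only through its H1975 ACBI1 libraries, so its H1975 call had to follow from its being tested. SYNPR, synaptoporin, had 0 counts in all libraries.

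SNAP23, the widely expressed counterpart of SNAP25, fell in both lines. In H1975 its mean was 53.1 CPM with DMSO and 34.7 CPM with ACBI1 (log2 -0.62, edgeR adjusted p = 0.0021), and in HCC44 71.4 and 38 CPM (log2 -0.91, edgeR adjusted p = 0.000141), and both calls held in 15 of 15 alternatives. In HCC44 SNAP23 stood at 12.1 CPM per kilobase against 1.07 for SNAP25 with DMSO, and at 6.43 against 8.25 with ACBI1. That reversal rests on 1 library: in ACBI1 replicate 1 SNAP25 stood at 5.33 CPM per kilobase, below the 7.08 of SNAP23, and in ACBI1 replicate 2 at 11.2, above its 5.79. In H1975 SNAP23 stayed the higher of the pair, at 5.88 against 2.28 with ACBI1. UCHL3, a ubiquitin hydrolase of many tissues, fell in HCC44 from 7.14 to 3.96 CPM (log2 -0.85, edgeR adjusted p = 0.00488) and did not pass in H1975 (log2 -0.42, adjusted p = 0.111). SNAP29 and UCHL5, other broadly expressed relatives, were not called in either line (log2 -0.18 and 0.05 for SNAP29, -0.2 and 0.13 for UCHL5, in H1975 and HCC44), nor was NCAM2, whose group means were at most 0.198 CPM.

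**Figure D3:**
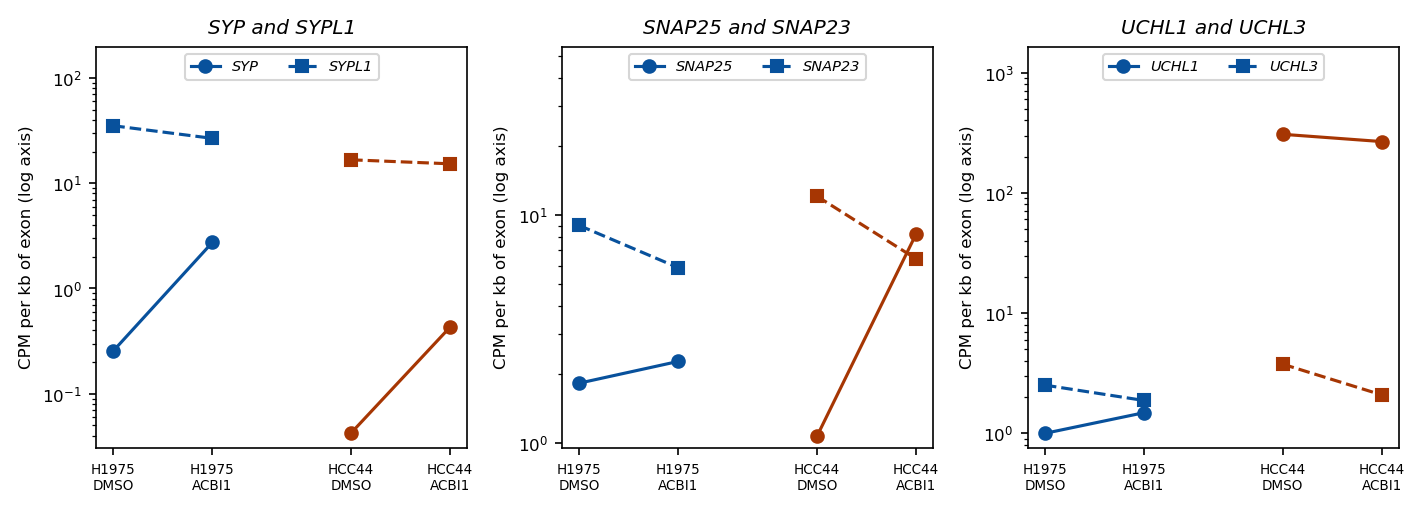
Mean CPM per kilobase of exon, on a log axis, for SYP, SNAP25 and UCHL1 and a broadly expressed relative of each, in the 4 groups. Points are group means, and single libraries are not drawn. The mean of SNAP25 is above that of SNAP23 only in HCC44 ACBI1 (8.25 against 6.43), through replicate 2 (11.2 against 5.79) and not replicate 1 (5.33 against 7.08), SYP stays below SYPL1 in all 4 groups, and UCHL1 is above UCHL3 only in HCC44.

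The genes whose pattern over the 8 libraries was most like that of SYP were PFN4 (r = 0.9856), NCAN (0.9854), NUDT1 (0.9847), SLC30A3 (0.9837) and CHRD (0.9816), among 16163 genes compared, of which 121 had r of 0.95 or more. SLC30A3 encodes a zinc transporter of synaptic vesicles, NCAN a proteoglycan of brain matrix, NUDT1 an enzyme that clears oxidised nucleotides and CHRD a secreted BMP antagonist. CHRD averaged 0.312 CPM with DMSO and 1.65 CPM with ACBI1 in H1975, and 0.0633 and 0.325 CPM in HCC44. SLC30A3 averaged 0.457 and 1.8 CPM in H1975, and 0.103 and 0.492 CPM in HCC44. NUDT1, the most abundant of them, averaged 18.7 and 51.5 CPM in H1975, and 9.97 and 23.4 CPM in HCC44. Their log2 changes in H1975 and HCC44 were 1.06 and 1.14 for PFN4, 1.67 and 2.1 for NCAN, 1.46 and 1.23 for NUDT1, 1.98 and 2.24 for SLC30A3, and 2.4 and 2.33 for CHRD. These genes were picked for following SYP over the same libraries, so their higher levels with ACBI1 follow from the choice and are given as a description.

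Among other synaptic vesicle and SNARE genes, 38 of the 52 listed were tested. In H1975, 12 were called higher and 7 lower (31.6% and 18.4% of those tested, median log2 change 0.16), against 14.6% and 16.7% of all genes and a median of -0.014. SYPL2 is among the 12, and its call adds nothing to that count. With library totals the H1975 counts were 15 and 4. In HCC44, 8 were called higher and 11 lower (21.1% and 28.9%, median -0.11), against 17.5% and 17.4% of all genes and a median of 0.006. The calls shared by both lines were 6 of those higher (BSN, DOC2A, RIMS3, SLC17A7, SYNGR1, SYNGR3) and 5 of those lower (NAPA, SNAP23, STX1A, UNC13D, VAMP3). Over all genes, those called higher in both lines were 40% of the higher calls in H1975 and 33.4% of those in HCC44, and those called lower in both were 42.4% and 40.6% of the lower calls. Some of these calls were lost without a library: VAMP3 in H1975 (without ACBI1 replicate 1, and with library totals, log2 -0.42 to -0.2 over alternatives), RIMS3 in H1975 (without ACBI1 replicate 2, log2 0.72 to 1) and STX1A in HCC44 (without any 1 of the 4 HCC44 libraries, log2 -0.9 to -0.76).

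Named members of that list were as follows. SYNGR1, a vesicle membrane protein distantly related to SYP, rose in both lines: H1975 went from 5.61 to 17 CPM (log2 1.59, edgeR adjusted p = 0.000155) and HCC44 from 0.292 to 1.96 CPM (log2 2.74, edgeR adjusted p = 2.54e-05). SLC17A7, a vesicular glutamate transporter, rose by 2.29 in H1975 and 2.28 in HCC44. PCLO, an active zone scaffold, rose in HCC44 from 0.126 to 1.02 CPM (log2 3, edgeR adjusted p = 9.99e-05). DOC2B, a calcium-binding protein of release, rose in H1975 from 0.234 to 1.41 CPM (log2 2.58). UNC13D, a priming factor of secretory lysosomes, fell from 109 to 12.5 CPM in HCC44 (log2 -3.12), and by a log2 change of -1.12 in H1975. That H1975 call of UNC13D was lost without DMSO replicate 1, DMSO replicate 2 or ACBI1 replicate 2 (log2 -1.35 to -0.88).

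Among synaptotagmins beside SYT1, 10 of 16 were tested, with 3 called higher and 3 lower in H1975, against 14.6% and 16.7% of all genes, and 2 higher and 1 lower in HCC44, against 17.5% and 17.4%. The median log2 change was 0.01 in H1975. In HCC44 it was 0.75, or 0.41 with the 3 genes that had 0 counts in a group set at their bound. In H1975 SYT11 rose from 1.09 to 4.48 CPM (log2 2.04), SYT3 from 0.272 to 1.4 CPM (log2 2.35), and SYT5 by 1.6 on the log2 scale. The SYT5 call was lost with DESeq2, without DMSO replicate 1 and without ACBI1 replicate 2 (log2 1.46 to 1.8). The 3 called lower in H1975 were SYT12 (122 to 52.5 CPM, log2 -1.21), SYT16 (12.8 to 5.28 CPM, log2 -1.28) and SYT14 (28 to 4 summed counts). The SYT14 call held in 10 of 14 alternatives. SYT14 passed the filter only with the help of its H1975 DMSO libraries (0.186 and 0.237 CPM), so its call adds nothing to the count of lower genes. The listed synaptotagmins summed in H1975 to 210 to 220 CPM with DMSO and 143 to 151 CPM with ACBI1. In HCC44 SYT17 rose by 0.58 and SYT7 changed by -0.47 on the log2 scale. Both calls were lost with each line fitted alone and without either HCC44 DMSO library, that of SYT17 also without ACBI1 replicate 2 (log2 0.32 to 0.81), and that of SYT7 also with library totals and without ACBI1 replicate 1 (log2 -0.73 to -0.25).

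Of the other dense-core granule genes, 10 of 18 were tested. In H1975, 1 was called higher and 5 lower (10% and 50%, median -0.34), against 14.6% and 16.7% of all genes. In HCC44, 1 was called higher and 3 lower (10% and 30%, median -0.2), against 17.5% and 17.4%. VGF, a granin-like secretory protein, fell in H1975 from 640 ± 14 to 221 ± 22 CPM (log2 -1.53, SE 0.12, edgeR adjusted p = 1.46e-05). PTPRN and PTPRN2, paired membrane proteins of granules, moved apart in HCC44: PTPRN fell from 23 to 1.1 CPM (log2 -4.38, edgeR adjusted p = 6.6e-07) and PTPRN2 rose from 0.253 to 1.98 CPM (log2 2.96, edgeR adjusted p = 9.31e-05). HID1, which acts in granule formation, rose by 0.68 in H1975, a call lost without DMSO replicate 2 (log2 0.5 to 0.95), and changed by -1.9 in HCC44. PAM, which amidates peptides, fell in H1975 (log2 -0.59). SCG2, secretogranin II, fell in H1975 from 0.99 to 0.262 CPM (log2 -1.91, edgeR adjusted p = 0.0215), a call lost without DMSO replicate 2 and without ACBI1 replicate 1 (log2 -2.28 to -1.57).

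Of 24 neuroendocrine transcription factors, 8 were tested, with 2 called higher and 0 lower in each line (25% of those tested, against 14.6% of all genes in H1975 and 17.5% in HCC44, medians -0.02 and 0.52). The H1975 calls were HES6 and MYT1, the latter with 8 summed counts with DMSO and 117 with ACBI1. Since MYT1 passed the filter only through those treated libraries, its call adds nothing to that count. HES6, which antagonises HES1 in neurogenesis, rose from 10.5 to 26.1 CPM in H1975 (log2 1.31, edgeR adjusted p = 0.000431) and by 0.62 in HCC44 (edgeR adjusted p = 0.0217). Of 16 tested among 17 genes for REST and its cofactors, 1 was called higher and 8 lower in H1975 (median -0.27), and 5 higher and 1 lower in HCC44 (median 0.08). These are 6.25% and 50% of those tested in H1975, and 31.2% and 6.25% in HCC44, against the shares of all genes given above. The 8 lower calls were 3 with library totals. RCOR2, a corepressor of the CoREST family, was the member called higher in both lines, at log2 1.66 in H1975 (2.3 to 7.29 CPM) and 0.67 in HCC44 (15.9 to 25.3 CPM). CTDSP2 and CTDSP1, small phosphatases of the REST complex, fell in H1975 (log2 -0.71 and -0.7). CTDSP1 was called higher in HCC44 (log2 0.52, 12 of 15 alternatives). SIN3A was called lower in H1975 (log2 -0.42, 11 of 15) and higher in HCC44 (log2 0.35, 13 of 15). In HCC44 PHF21A, a reader of unmethylated histone H3 in the same complex, rose by 0.7, and SIN3B, a corepressor scaffold, fell (log2 -0.52). SIN3B was also called lower in H1975 (log2 -0.3, 9 of 15 alternatives). ONECUT2, a homeodomain factor, rose in HCC44 by 0.45, a call lost with each line fitted alone and without H1975 ACBI1 replicate 2, either HCC44 DMSO library or HCC44 ACBI1 replicate 2 (log2 0.32 to 0.57). The HCC44 calls were lost for HES6 without DMSO replicate 1 or ACBI1 replicate 2 (log2 0.37 to 0.83), and for RCOR2 without DMSO replicate 2 or ACBI1 replicate 2 (log2 0.45 to 0.86).

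Of 31 genes for neuronal and neuroendocrine cell bodies, 15 were tested, with 5 called higher and 1 lower in H1975 (33.3% and 6.67%, median 0.17) and 5 higher and 3 lower in HCC44 (33.3% and 20%, median 0.01), against 14.6% and 16.7% of all genes in H1975 and 17.5% and 17.4% in HCC44. DLL3, the inhibitory Notch ligand found on small-cell lung cancer, rose in both lines: H1975 averaged 4.15 CPM with DMSO and 10.3 CPM with ACBI1 (log2 1.31, edgeR adjusted p = 0.000326), and HCC44 3.2 and 7.49 CPM (log2 1.23, edgeR adjusted p = 0.00035). MAPT, the microtubule protein tau, rose too, with means of 7.89 and 22.4 CPM in H1975 (log2 1.51) and 2.09 and 8.82 CPM in HCC44 (log2 2.07). DDC, which makes dopamine and serotonin, rose in H1975 from 0.211 to 1.46 CPM (log2 2.78). TLCD3B rose in HCC44 (log2 2.25, 15 of 15 alternatives) and in H1975 (log2 1.16, 12 of 15). Also called higher in HCC44 were GAP43 (6 to 33 summed counts) and KIF1A (9 to 32). Both calls were lost with DESeq2 and without any 1 of the 4 HCC44 libraries. GAP43, with 0 counts in H1975, passed the filter only through its HCC44 ACBI1 libraries, so its call adds nothing to the count of higher genes. The 1 called lower in H1975 was INA (log2 -1.18, 15 of 15 alternatives). Those called lower in HCC44 were ENO2 (56.5 to 34.5 CPM, log2 -0.71, 15 of 15 alternatives), TAGLN3 (log2 -2.09, 12 of 14) and STMN3 (log2 -0.93, 7 of 15).

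Of the 11 tested among 21 neural adhesion genes, 2 were called higher and 1 lower in H1975 (median 0.15, or 0.06 with genes absent from a group at their bound), and 2 higher and 0 lower in HCC44 (median 0.13, or 0.11). The shares were 18.2% and 9.09% in H1975 and 18.2% and 0% in HCC44, against 14.6% and 16.7%, and 17.5% and 17.4%, of all genes. The genes higher in H1975 were CADM4 and NRXN2, the latter with 6 summed counts with DMSO and 64 with ACBI1. Since NRXN2 passed the filter only through those treated libraries, its call adds nothing to that count. CADM4 rose in H1975 by 0.62, a call lost without either DMSO library or ACBI1 replicate 2 (log2 0.54 to 0.82). NRCAM and NLGN2, a neuroligin, rose in HCC44 by 0.83 and 0.46, and both calls were lost without DMSO replicate 2 or ACBI1 replicate 2 (log2 0.42 to 1.15 for NRCAM and 0.23 to 0.66 for NLGN2), that of NRCAM also without DMSO replicate 1 or either H1975 ACBI1 library. Among 7 tested of 19 neuropeptides, 3 were called higher and 0 lower in H1975 (42.9% and 0%, median 0.2), and 2 higher and 1 lower in HCC44 (28.6% and 14.3%, median -0.21). The shares of all genes were again 14.6% and 16.7% in H1975, and 17.5% and 17.4% in HCC44. In H1975 CCK, cholecystokinin, rose by 1.57, UCN, urocortin, by 1.28 and NMB, neuromedin B, by 0.53. That H1975 call of NMB was lost without DMSO replicate 2, either ACBI1 library or either HCC44 DMSO library (log2 0.42 to 0.73). In HCC44 NMB rose by 0.82, and GAL, galanin, fell from 32.5 to 14.6 CPM (log2 -1.15). NMU, also called higher there, had 8 summed counts with DMSO and 57 with ACBI1. Its call was lost without either HCC44 DMSO library or ACBI1 replicate 2 (log2 1.99 to 3.32).

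**Figure D4:**
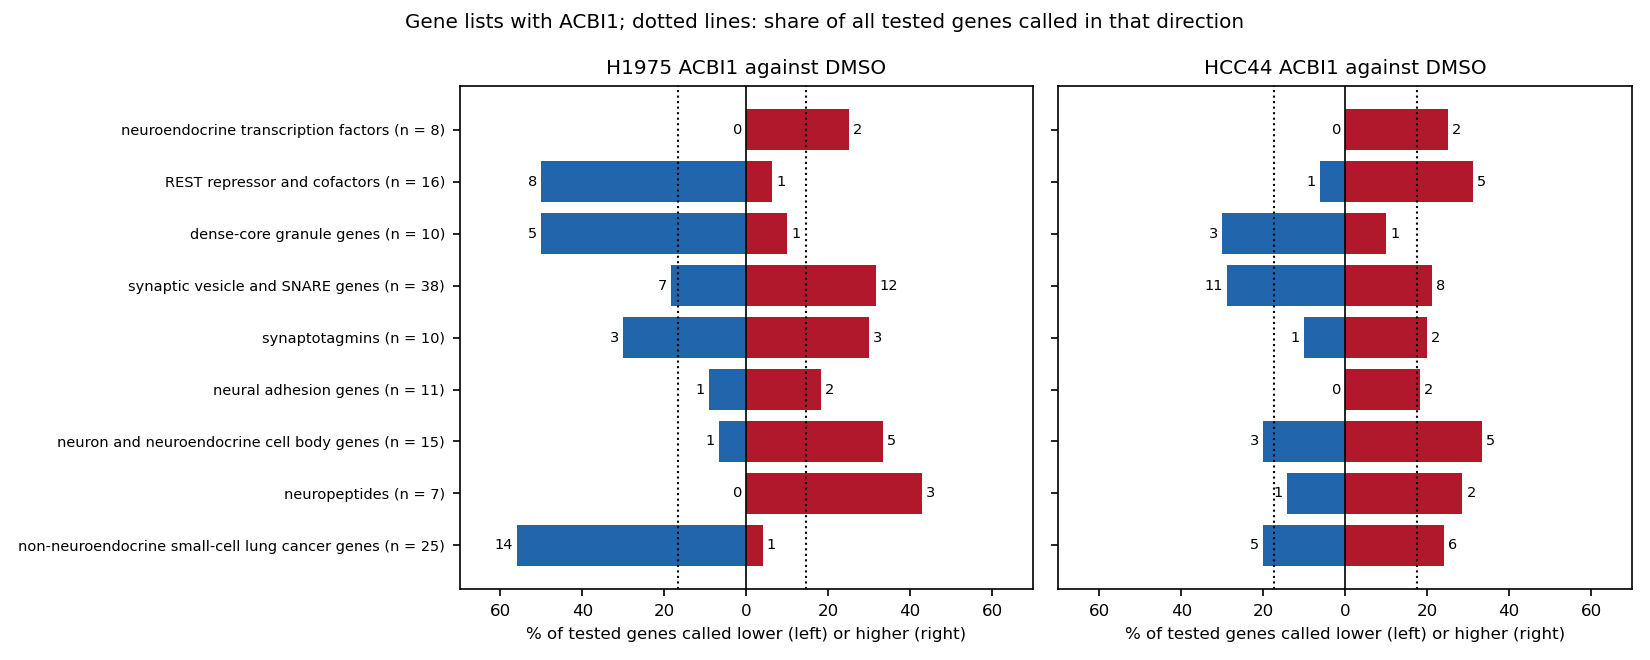
Share of the tested genes of each list called lower (left) or higher (right) with ACBI1 in H1975 and HCC44. The number of genes stands at each bar, and dotted lines give the share of all tested genes. The lists of cell type markers are not drawn. The list of non-neuroendocrine genes (14 of 25 lower) lies mostly to the left in H1975, and the vesicle list has bars on both sides in both lines.

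Genes that mark the non-neuroendocrine state of small-cell lung cancer were all tested, 25 of 25. In H1975, 14 were called lower and 1 higher (56% and 4%, median -0.7), against 16.7% and 14.6% of all genes, and 10 were lower with library totals. In HCC44, 5 were called lower and 6 higher (20% and 24%, median 0.06), against 17.4% and 17.5% of all genes, or 4 and 9 with library totals. TGFBI, a matrix protein induced by TGF-beta, fell in H1975 from 1760 to 369 CPM (log2 -2.26, SE 0.29, edgeR adjusted p = 0.00143). S100A16, a calcium-binding protein, fell in HCC44 from 166 to 46.5 CPM (log2 -1.84). ARHGDIB and EMP1, an epithelial membrane protein, fell in H1975 (log2 -2.16 and -1.27). RAB27B, a GTPase of secretion, rose by 1.76 in HCC44 and was called lower in H1975 (log2 -0.7, 10 of 15 alternatives). PTGES, a prostaglandin E synthase, rose in HCC44 by 1.97, a call lost with no filter and without any 1 of the 4 H1975 libraries (log2 1.15 to 2.49). For the response in HCC44 minus that in H1975, 13 of the 25 were called higher and 3 lower, against 10.2% and 8.4% of all genes.

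Markers of other cell types were read in the same libraries. Epithelial markers, 6 genes including KRT8 and KRT18, summed to 5140 to 5390 CPM in H1975 DMSO and 2330 to 2810 CPM in H1975 ACBI1. Of these, 4 were called lower and 0 higher in H1975, against 16.7% and 14.6% of all genes. The lower ones included KRT18 (log2 -1.24), KRT8 (-1.07) and KRT7 (-1.07). In HCC44 the 6 epithelial markers summed to 940 to 980 CPM with DMSO and 1200 to 1660 CPM with ACBI1. There KRT7 (1.09) and EPCAM (0.84) were called higher and KRT8 (-0.52) lower, against 17.5% and 17.4% of all genes. The 7 fibroblast markers, with DCN at 0 in all 8 libraries, summed in H1975 to between 48.9 and 72.1 CPM under DMSO and between 25.6 and 30.5 CPM under ACBI1. In HCC44 the sums were 74.4 to 92.7 CPM under DMSO and 207 to 411 CPM under ACBI1. Among them LUM (log2 2.2) and COL1A1 (1.91) rose in HCC44, the latter call lost with no filter (log2 1.32 to 2.33 over alternatives). COL1A2 was called lower there, with 12 summed counts with DMSO and 0 with ACBI1, a call lost without any 1 of the 4 HCC44 libraries. In H1975 COL1A2 (log2 -3.09) and COL1A1 (-1.13) fell and PDGFRB rose (1.38). That H1975 call of COL1A1 held in 7 of 15 alternatives (log2 -1.36 to -0.78) and was lost without any 1 of the 4 H1975 libraries.

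The 4 endothelial markers summed to 3.67 to 4.59 CPM in HCC44 DMSO and 1.14 to 1.46 CPM in HCC44 ACBI1. There 2 were called lower, CDH5 (log2 -3.5) being the one above 1 CPM, against 17.4% of all genes. The other, PECAM1, had 76 summed counts with DMSO and 7 with ACBI1. PECAM1 passed the filter only with the help of its HCC44 DMSO libraries, so its call adds nothing to that count. In H1975 the endothelial markers summed to between 0.452 and 0.636 CPM, with 1 called higher and 0 lower, against 14.6% and 16.7% of all genes. The higher one was VWF (10 summed counts with DMSO and 38 with ACBI1, log2 1.76). Its call was lost without DMSO replicate 1, DMSO replicate 2 or ACBI1 replicate 2. The 5 lung adenocarcinoma markers summed in H1975 to between 2.03 and 2.19 CPM under DMSO and between 1 and 1.22 CPM under ACBI1. Their HCC44 sums were 0.392 to 0.525 CPM under DMSO and 0.208 to 0.315 CPM under ACBI1. NAPSA, a surfactant-processing protease and the 1 of them tested, was called lower in H1975 (log2 -0.94), a call lost with library totals, with DESeq2 and without any 1 of the 4 H1975 libraries (log2 -1.08 to -0.74). Leukocyte markers summed to between 0.126 and 1.13 CPM over the 8 libraries. The part of these changes in the values of the 8 genes was not tested.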

How the data were processed

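RNA was sequenced from 8 libraries of 2 cell lines. The authors deposited whole-number read counts per gene symbol, 1 file a library. TopHat2 2.1.1, HTSeq 0.11.0 and hg38 are named, without role or order, per the submitters' processing notes. The annotation and strand setting are not given in the sources used here. The 5 summary rows, 14.3% to 15.8% of a library's total (ambiguous reads 4.98% to 5.42%), were left out of library sizes.

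The 8 genes and the gene lists were chosen with earlier results of these data known. Counts were fitted in R 4.3.3 with edgeR 4.0.16 (filterByExpr, TMM, robust quasi-likelihood, 1 mean per group over all 8 libraries, 4 residual degrees of freedom). The filter kept 21307 of 61228 genes. Adjusted p (Benjamini-Hochberg over those genes) below 0.05 was a call. All members and, from each list and line, up to 3 called genes with the largest change and at least 1 CPM in a group were named, with relatives that passed the filter (SCG2 among them), overlapping genes, REST, NEUROD1 and the 5 genes most correlated with SYP (log2 CPM, prior count 2). Genes named as called in both lines, or in opposite directions, were named after their values were seen. So were INA, ENO2, STMN3, SYT12, SYT14, SYT16, VWF and, in HCC44, COL1A2, which were called opposite to named genes of their lists. MYT1, NRXN2, NMU, GAP43, KIF1A and PECAM1 were also named after their values were seen, to give the limits of their calls. A group with 0 counts was given the limit that 3 counts allow. Exact 95% intervals of ratios cover counting error only. Exon lengths and positions are from GENCODE 29 (GRCh38), promoters from RefSeq (GRCh38.p14). 1 further gene is not reported here. The scripts were tested on simulated data. Alternatives were DESeq2 1.42.0, other scalings, filters and designs, and leaving out each library.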

Additional observations from a re-analysis of the deposited data

Results flagged for a closer look

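The response to ACBI1 differed between HCC44 and H1975 for 3 of the 8 genes by the edgeR test of the difference itself. The difference (HCC44 minus H1975, log2) was 0.88 for SYT1, which was lower with ACBI1 in H1975 and higher in HCC44. It was 2.64 for SNAP25, which was called in HCC44 and not in H1975. For UCHL1 it was -0.76, with a call in H1975 and none in HCC44. Of all genes tested, 18.6% were called in this comparison. Groups of 2 libraries are too small for a check of single outlying libraries.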

How the results depend on the processing

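Calls for SYP and SNAP25 in HCC44, and for the differences in SNAP25, SYT1 and UCHL1, held in every alternative that could be fitted. A filter of 1 CPM removed CHGB, whose call follows from its being tested and is no sign of stability. The number of genes called was 6663 in H1975 (3690 to 7161 leaving out 1 library, with 4342 without DMSO replicate 1 and 3690 without ACBI1 replicate 2), 7438 in HCC44 (4945 to 7342, the lowest without DMSO replicate 2), 3967 for the difference (2341 to 4134, with 2481 without H1975 ACBI1 replicate 2, and 2341 and 2598 without HCC44 DMSO replicates 1 and 2) and 14477 between the lines with DMSO (12940 to 14912). Where a group was left with 1 library, that library was assumed to vary like the others. Of the 8 genes, the 1 higher in H1975 beside SYP became 0 with each line fitted alone (0 to 1 leaving out a library), and the 1 lower became 0 with library totals (0 to 1). Those higher in HCC44 numbered 4 with CHGB (3 to 4). For HCC44 DMSO against H1975 DMSO, without SYP, the 1 lower became 2, with SNAP25, under library totals, no filter, DESeq2 and the replicate block (1 to 2 leaving out a library). The cause was not tested. The SYP difference of -0.1 (-0.69 to 0.28 leaving out 1 library) was 0.28 without H1975 DMSO replicate 2, 0.09 without H1975 ACBI1 replicate 2 and 0 without HCC44 ACBI1 replicate 2. With library totals 60.5% of HCC44 calls, 40.5% of difference calls and 41.5% of line calls were higher. The labels name no batch behind the replicate numbers, and same-numbered libraries correlated in their deviations at 0.374 in H1975 and 0.109 in HCC44. A replicate block gave 9103 genes in H1975, 9533 in HCC44, 6358 for the difference and 15719 between the lines. Depth limits CHGA, INSM1 and NCAM1, each at 4 or fewer counts a group.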

Other observations

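Several neuronal genes from the same lists were called in opposite directions in the 2 lines, and were named after their values were seen. Over all genes, 476 of 21307 (2.23%) were called in opposite directions. Since the genes below were picked for that pattern, their values are a description, without a test. RAB3B, a GTPase of secretory vesicles, rose by 1.56 on the log2 scale in H1975 and changed by -1.75 in HCC44, a difference of -3.31 (SE 0.27). NRCAM, a neuronal cell adhesion molecule, changed by -3.07 in H1975 and by 0.83 in HCC44, a difference of 3.89 (SE 0.6). The HCC44 call of NRCAM held in 10 of 15 alternatives (log2 0.42 to 1.15), and was lost without either H1975 ACBI1 library, either HCC44 DMSO library or HCC44 ACBI1 replicate 2. HID1, a protein of dense-core granule formation, changed by 0.68 in H1975 and by -1.9 in HCC44, where it went from 30.7 to 8.21 CPM (difference -2.58). The H1975 call of HID1 was lost without DMSO replicate 2 (log2 0.5 to 0.95 over alternatives). TAGLN3, a neuronal actin-binding protein, changed by 1.59 and -2.09 (difference -3.68), with its calls kept in 10 of 14 alternatives in H1975 and 12 of 14 in HCC44. They were lost in H1975 with DESeq2 and without DMSO replicate 1, DMSO replicate 2 or ACBI1 replicate 2 (log2 1.14 to 1.98), and in HCC44 without DMSO replicate 1 or ACBI1 replicate 2 (log2 -2.55 to -1.74).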
